A study of Mus musculus with 2 samples.

Results

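The genes of fatty acid synthesis and desaturation comprised 10 genes of 20655 that could be named on the arrays: *Srebf1*, *Acaca*, *Acacb*, *Fasn*, *Scd1*, *Scd2*, *Elovl5*, *Elovl6*, *Fads1* and *Fads2*. The list was made by function, as the regulator and the enzymes that build and desaturate long-chain fatty acids, with earlier results of these arrays known. All 13 probes listed under their RefSeq accessions are described. The samples were RAW264.7 cells, a macrophage line derived from the ascites of a male adult BALB/c mouse with a tumor induced by Abelson murine leukemia virus. One culture received vehicle control and the other IR-61, a near-infrared heptamethine cyanine dye, at 10 μM for 24 h, in DMEM medium with fetal bovine serum. Each RNA was labeled with Cy3 and hybridized alone to an Agilent mouse array, and the 2 arrays shared a slide. With 1 array per condition there was no replicate, no test between the conditions was possible and no p-value is given.

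Fatty acid synthesis takes acetyl-CoA in the cytosol and extends it to palmitate. Acetyl-CoA carboxylase makes malonyl-CoA in the committed step, and fatty acid synthase adds the malonyl units one after another. Elongases of the endoplasmic reticulum then lengthen palmitate and dietary fatty acids, stearoyl-CoA desaturases place a first double bond in saturated chains, and the Fads desaturases add further double bonds to polyunsaturated chains. SREBP-1, the product of *Srebf1*, is the transcription factor best known for switching on these enzymes. In macrophages the pathway supplies membrane phospholipids and the precursors of lipid mediators, and its flux changes when the cells are activated.

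For 7 of the 10 genes the RefSeq promoter table (GRCm38.p6) held the bases before an annotated start, in 9 windows. *Scd1*, *Scd2* and *Fads1* had no entry. The promoters of the synthase, an elongase and a desaturase are shown because they hold the letters of motifs common in lipogenic promoters, with the 250 bases before the start written 5′ to 3′ on the strand of the gene. Capitals mark the CCAAT box bound by NF-Y, a usual partner of SREBP (CCAAT, or ATTGG for the other strand), the E-box CACGTG bound by USF factors, and the GC box bound by Sp1 (GGGCGG, or CCGCCC for the other strand).
Fasn, chr11:120824548-120824797, minus strand: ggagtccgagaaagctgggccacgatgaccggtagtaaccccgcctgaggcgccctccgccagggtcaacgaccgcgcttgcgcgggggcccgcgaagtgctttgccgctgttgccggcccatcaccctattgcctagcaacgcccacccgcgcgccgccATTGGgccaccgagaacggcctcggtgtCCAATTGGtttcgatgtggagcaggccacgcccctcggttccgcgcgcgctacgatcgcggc
Elovl5, chr9:77917115-77917364, plus strand: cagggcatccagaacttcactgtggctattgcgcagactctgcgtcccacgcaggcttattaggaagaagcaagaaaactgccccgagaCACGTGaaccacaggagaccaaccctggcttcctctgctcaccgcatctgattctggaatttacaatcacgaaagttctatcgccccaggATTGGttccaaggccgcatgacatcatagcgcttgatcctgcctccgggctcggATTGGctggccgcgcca
Fads2, chr19:10101504-10101753, minus strand: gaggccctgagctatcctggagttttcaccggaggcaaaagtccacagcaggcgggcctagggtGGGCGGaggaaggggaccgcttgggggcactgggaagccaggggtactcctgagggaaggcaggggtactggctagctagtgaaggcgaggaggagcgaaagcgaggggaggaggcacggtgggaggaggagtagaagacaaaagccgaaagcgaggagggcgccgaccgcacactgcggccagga
The *Fasn* window held 3 CCAAT boxes, of which the 2 nearest to the start overlap on opposite strands (CCAATTGG). The *Elovl5* window held 2 CCAAT boxes, both on the opposite strand, and 1 E-box. The *Fads2* window held a single GC box. A CCAAT box was in 5 of the 9 windows, from 4 of the 7 genes, and in 33.8% of all 32851 windows of this length. A GC box was in 3 of the 9 windows, from 2 genes, and in 32.7% of all windows, and the E-box was in 1 of the 9 windows and in 6.02% of all windows. The classical sterol regulatory element, searched as its exact 10-base form, was in no window of these genes and in 0.0731% of all windows. All motifs were searched on both strands. A match of letters is a description and shows no binding.

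Signals are given as the deposited spot intensities, which the scanner software had corrected for background and for trends within the array. Scaled log2 signals are their log2 values minus the array's 75th percentile (vehicle 10.30, IR-61 10.79). A difference is the scaled log2 signal with IR-61 minus that with vehicle. A probe counted as measured where the scanner software had marked it well above background on both arrays, and all 13 probes did. Over 16885 genes measured on both arrays, the median difference was 0.10 on the log2 scale. The center of the distribution thus lay slightly above 0, and the SD across genes was 0.44. Each of the 13 probes was printed once per array. Their error was therefore taken from other probes that were printed 10 times, whose SD between spots at log2 signals of 10 or more was 0.070 (vehicle) and 0.063 (IR-61). Dimmer probes varied more, with SDs of 0.178 and 0.144 at log2 signals from 6 to 10 and of 0.347 and 0.296 at those below 6. This error covers noise within an array and not the difference between cultures. A lower signal in such bulk RNA cannot tell fewer expressing cells from less RNA per cell.

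Of 10 macrophage markers, 9 could be named, and all 9 were well above background on both arrays; their differences ran from −0.98 for *Cd14* to 1.03 for *Adgre1*, which encodes F4/80. Of the markers of other cells, 3 of 6 for adipocytes were measured on both arrays. *Fabp4*, which macrophages also express, had signals of 86908 with vehicle and 161031 with IR-61 and a difference of 0.40, *Plin1* had signals of 16.9 and 52.0 and a difference of 1.13, and *Cidec* was at 0.06. The defining *Adipoq* and *Lep* were not above background on either array, and *Cfd* was above it with IR-61 alone. Lymphoid markers were measured for 6 of 8 genes, with *Ms4a1* at −1.46 and the other 5 between −0.09 and 0.16, and *Cd3g* and *Ncr1* were not above background. The measured ones had vehicle signals from 39.2 for *Cd79a* to 1354 for *Cd4*, with *Cd3e* at 683.9 and *Ms4a1* at 352.8. Fibroblast and epithelial markers were measured for 5 of 7 genes. The fibroblast genes among them were bright: *Col1a1* had signals of 27148 with vehicle and 58670 with IR-61, *Col1a2* of 15029 and 22576, *Dcn* of 16543 and 21738, and *Pdgfra* of 859.6 and 1515. Their differences were 0.62, 0.10, −0.09 and 0.33, and such levels do not follow from the label of a macrophage line. Of the epithelial markers, *Krt8* was measured, with signals of 26.0 and 27.4 and a difference of −0.41, and *Epcam* and *Cdh1* were not above background. The part of other cells in the signals below was not tested.

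IR-61-treated cells had lower scaled signals for the stearoyl-CoA desaturases *Scd1* and *Scd2* and for the desaturase *Fads1*. The differences of the remaining 7 genes lay between −0.22 and 0.25. Those of *Srebf1*, *Acacb*, *Fasn*, *Elovl6* and *Fads2* were smaller than their SD between spots, and that of *Acaca* was close to its SD. *Elovl5* exceeded its SD, at 0.20 ± 0.09. *Scd1* was the only 1 of the 10 genes past 2-fold, and it was 2.58-fold lower. It fell short of 2-fold without scaling between the arrays (−0.88) and with normexp background correction (−0.94), so that none of the 10 genes passed under these settings. Among all measured genes 1.39% were lower by 2-fold or more. Counted by probe, 1 of the 13 was lower by 2-fold or more, against 1.58% of the named probes measured on both arrays. No gene of the 10 was lower by 3-fold or more, against 0.379% of all measured genes. None of the 10 genes was higher by 2-fold or more, against 1.99% of all measured genes. At a limit of 1.5-fold, 3 of the 10 genes were lower, *Scd1*, *Scd2* and *Fads1*, against a background of 5.69%, and none was higher, against 9.79%. The median of the 10 differences was −0.10, compared with 0.10 over all measured genes. In all, 6 of the 10 differences were negative and 4 positive, against 6554 negative and 10331 positive over all 16885 measured genes.

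**Figure D1:**
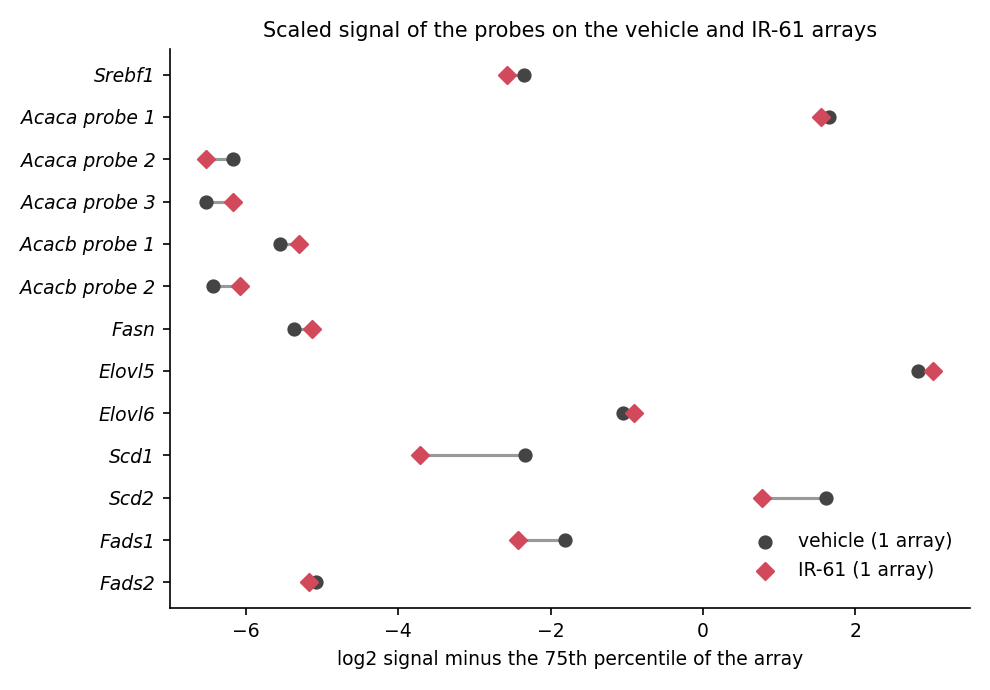
Scaled log2 signal (log2 signal minus the 75th percentile of the array, horizontal axis) of each probe of the 10 genes, with vehicle as circles and IR-61 as diamonds, 1 array each. The widest gap is that of *Scd1*, from −2.34 to −3.71, followed by *Scd2*, from 1.62 to 0.78, and *Fads1*, from −1.81 to −2.43. Positions along the axis should not be compared between probes, which differ in binding.

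*Srebf1*, which encodes SREBP-1, had a signal of 247.0 with vehicle and 298.5 with IR-61. Relative to the level of each array, the IR-61 signal was the lower one, with a difference of −0.22 ± 0.23 (SD, from the spread between repeated spots). The difference was thus smaller than this SD, and the *Srebf1* signals could not be told apart. Of all measured genes, 20.4% had a lower difference. The gene has several start sites that give the SREBP-1a and SREBP-1c forms, and its only probe is listed under accession NM_011480, so the forms were not separated here. Without scaling between the arrays the difference was 0.27, and it remained negative under the other 11 alternatives.

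Acetyl-CoA carboxylase is encoded by *Acaca*, the cytosolic form that feeds synthesis, and by *Acacb*, a form at the mitochondrial surface whose malonyl-CoA restrains fatty acid oxidation. *Acaca* was read by 3 probes, all listed under accession NM_133360. The brightest had a signal of 3984 with vehicle and 5207 with IR-61, and a difference of −0.10 ± 0.09, close to its SD. The remaining *Acaca* probes were dim, with signals of 17.5 and 13.8 with vehicle and 19.3 and 24.5 with IR-61. Their differences were −0.35 and 0.35, in opposite directions, each with an SD of 0.46. The faintest probe well above background had a signal of 12.8 with vehicle and 15.0 with IR-61, so both dim probes lay just over this level. The *Acaca* value therefore rests on the brightest probe. It was 0.39 without scaling and 0.055 with normexp background correction. *Acacb* was read by 2 dim probes, with signals of 26.9 and 14.6 with vehicle and 44.8 and 26.3 with IR-61. Both *Acacb* probes had a positive difference, 0.25 and 0.36, each smaller than its SD of 0.46. With normexp background correction *Acacb* was at −0.23, so no direction can be given for it.

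*Fasn*, the fatty acid synthase whose promoter is shown above, had a signal of 30.6 with vehicle and 50.7 with IR-61. Its difference was 0.24 ± 0.46, smaller than the SD between spots. Its single probe was only 2.39 times as bright as the faintest detected probe of the vehicle array, and 3.38 times on the IR-61 array. With normexp the difference was −0.08, and no direction can be given for *Fasn* either.

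The elongases had brighter probes than *Fasn*. *Elovl5*, which lengthens polyunsaturated chains, had a signal of 8947 with vehicle and 14442 with IR-61, the brightest pair among these probes. Its difference was 0.20 ± 0.09, which exceeded the SD between spots but lay 0.10 above the median of all genes, and 62.0% of the measured genes had a lower difference. *Elovl6*, which lengthens palmitate to stearate, had a signal of 610.6 with vehicle and 950.1 with IR-61. Its difference was 0.15 ± 0.23, smaller than the SD, and 55.7% of the measured genes had a lower difference. Both elongases had a positive difference under every alternative that was run, and neither reached 2-fold under any of them. The values lay between 0.12 and 0.69 for *Elovl5* and between 0.06 and 0.64 for *Elovl6*. Several alternatives could not change the sign. The filters on dim probes and the mean over probes left both values unchanged, and no scaling raised all genes. With the trend over rows and columns removed, *Elovl6* was at 0.06, below the median of all genes in that setting, 0.11.

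*Scd1* and *Scd2* encode stearoyl-CoA desaturases, which convert stearate and palmitate to oleate and palmitoleate. *Scd1* had a signal of 249.2 with vehicle and 135.6 with IR-61, so the IR-61 signal was the lower one even before scaling. The difference was −1.37 ± 0.23, which is 5.97 times the SD between spots. Of 16885 measured genes, 0.592% had a lower difference than *Scd1*. *Scd2* had a signal of 3880 with vehicle and 3035 with IR-61, again lower before scaling. Its difference was −0.84 ± 0.09, equal to a 1.79-fold lower signal and 8.92 times the SD, and 2.24% of the measured genes were lower. Their differences were 0.52 apart, against an SD of 0.25 for this gap. Each of the genes was read by a single probe, and how far a probe of one desaturase also binds the transcripts of the others was not tested.

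*Fads1* and *Fads2* encode the desaturases that act on polyunsaturated chains on the way to arachidonic acid. *Fads1* had a signal of 360.9 with vehicle and 328.6 with IR-61. Before scaling the difference was −0.14, smaller than the SD between spots. The scaled difference was −0.62 ± 0.23, equal to a 1.54-fold lower signal and 2.73 times the SD, and 4.89% of the measured genes were lower. *Fads2* had a signal of 37.4 with vehicle and 49.3 with IR-61. Its difference was −0.09 ± 0.46, smaller than the SD between spots, on a dim probe. The values thus place *Fads1* in the lower tail of all genes, whereas those of *Fads2* could not be told apart.

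**Figure D2:**
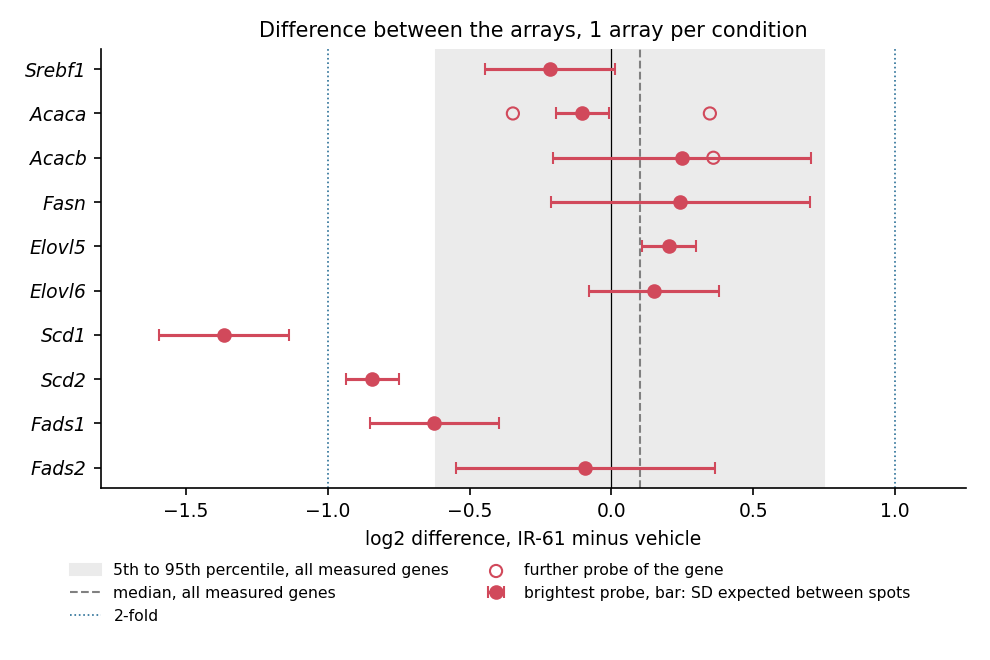
Log2 difference (IR-61 minus vehicle) of each of the 10 genes, with filled circles for the brightest probe, bars for the SD of repeated spots and open circles for further probes. The shaded band runs from the 5th to the 95th percentile of all measured genes (−0.62 to 0.75), the dashed line is their median (0.10) and dotted lines mark 2-fold. *Scd1* and *Scd2* lie below the band, *Fads1* at its lower edge and the remaining 7 genes inside it.

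Ordered from the lowest difference, the genes ran *Scd1*, *Scd2*, *Fads1*, *Srebf1*, *Acaca*, *Fads2*, *Elovl6*, *Elovl5*, *Fasn* and *Acacb*. *Scd1* lay 2.12 SDs of the gap below *Scd2*, and *Fads1* lay 1.26 SDs below *Srebf1*. The gap between *Scd2* and *Fads1* was 0.883 of its SD, so these neighbours did not differ beyond the spread between spots. Each of the other 6 gaps was below 1 SD, the widest of them 0.472, between *Fads2* and *Elovl6*. *Scd1*, *Scd2* and *Fads1* were the lowest of these genes, in this order, in the main setting and under all 12 alternatives in which the values were recomputed. Several of these alternatives could not change the order of *Scd1*, *Scd2* and *Fads1*. The other array-wide scalings and no scaling shift all genes alike. The filters on dim probes, the mean over probes and outlier spots kept left the values of these single-probe genes the same or nearly so. The spread between probes of the same gene gives another view of the error. Over 4160 genes with more than 1 probe measured on both arrays, the differences of the brightest 2 probes were a median of 0.32 apart, with a 95th percentile of 1.01. In size, *Scd1* at −1.37 was larger than that 95th percentile, and *Scd2* at −0.84 and *Fads1* at −0.62 were smaller. The measures are unlike, because a gap holds the error of 2 probes and each of these values that of 1. The comparison therefore sets no limit for *Scd1*, *Scd2* and *Fads1*. None of these genes had another named probe to set beside the first.

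**Figure D3:**
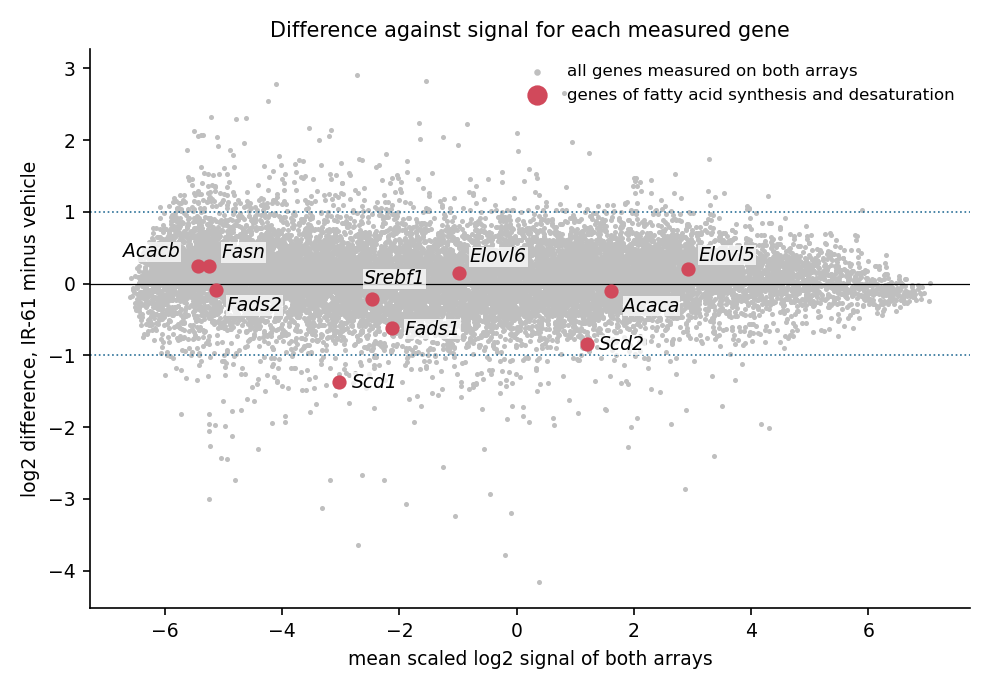
Log2 difference (IR-61 minus vehicle, vertical axis) against the mean scaled log2 signal of both arrays (horizontal axis), with grey points for the 16885 measured genes and red points for the 10 genes. *Acacb*, *Fasn* and *Fads2* lie at the dim end, and *Scd1*, at −1.37, lies below the dotted 2-fold line.

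The stearoyl-CoA desaturases have close relatives beside them. On the assembly the 4 genes *Scd3*, *Scd2*, *Scd4* and *Scd1* lie in a row on chromosome 19, with no other protein-coding gene between them. *Scd4* and *Scd3* are given although they are outside the rule for named genes, and were chosen after their values were seen. *Scd4* had signals of 379.7 with vehicle and 365.3 with IR-61 and a difference of −0.54 ± 0.23. *Scd3* had a brightest probe with signals of 273.1 and 437.6 and a difference of 0.19 ± 0.23, and its other probes were at 0.07 and −0.23. The values of the row therefore ran from −1.37 for *Scd1* to 0.19 for *Scd3*. The Fads genes also form a row on this chromosome, *Fads3*, *Fads2* and *Fads1*. *Fads3*, a relative that acts on other substrates, had signals of 706.5 and 1213 and a difference of 0.29 ± 0.19, and was likewise chosen after its value was seen.

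The remaining desaturases and their electron donors comprised 9 genes, of which 8 were measured on both arrays. Of these 1 was lower by 2-fold or more, against 1.39% of all measured genes, and the median difference was 0.19. The 1 gene was *Cyb5r3*, the cytochrome b5 reductase that passes electrons from NADH toward the desaturases. It had signals of 4906 with vehicle and 3349 with IR-61, a difference of −1.04 ± 0.09 and a 2.05-fold lower signal. Its second probe, with signals of 217.6 and 190.1, was at −0.68, below 0 as well. The highest value of this list was that of *Cyb5b*, the mitochondrial outer membrane cytochrome b5, at 0.31, but its second probe was at −0.81, so its probes disagreed.

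Of 17 genes that activate fatty acids or place them in glycerolipids, all were measured, 3 were lower by 2-fold or more and none was higher, with a median difference of −0.10. Over all measured genes, 1.39% were lower and 1.99% higher by 2-fold or more. *Lpcat3*, which loads polyunsaturated chains into phospholipids, had signals of 1630 with vehicle and 983.4 with IR-61, a difference of −1.22 ± 0.16 and a 2.33-fold lower signal. *Lpin2*, a phosphatidate phosphatase, had signals of 345.5 and 221.6, a difference of −1.13 ± 0.23 and a 2.19-fold lower signal. *Gpat3*, a glycerol-3-phosphate acyltransferase, had signals of 999.4 and 658.9, a difference of −1.09 ± 0.23 and a 2.13-fold lower signal. For these 3 genes the IR-61 signal was the lower one before scaling too. The highest value of this list was that of the acyl-CoA synthetase *Acsl3*, with signals of 1648 and 3518 and a difference of 0.61 ± 0.09.

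**Figure D4:**
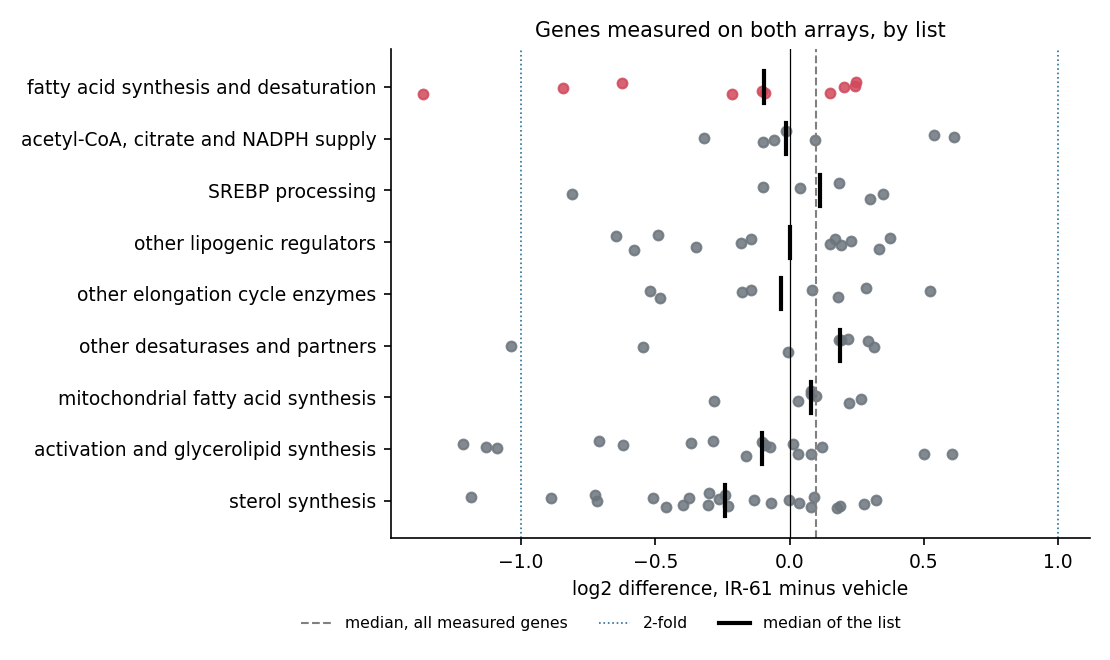
Log2 difference (IR-61 minus vehicle) of each gene measured on both arrays, by list, with black bars for the median of the list, a dashed line for the median of all measured genes (0.10) and dotted lines at 2-fold. Points left of the lower 2-fold line are *Scd1*, *Cyb5r3*, *Lpcat3*, *Lpin2*, *Gpat3* and *Lss*, and no point lies right of the upper line.

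Among 6 genes of SREBP processing, none passed 2-fold and the median was 0.11. The lowest was *Srebf2*, which encodes the paralog SREBP-2 that favors sterol genes, with signals of 4762 with vehicle and 3809 with IR-61 and a difference of −0.81 ± 0.09. The second *Srebf2* probe was at −0.54. The highest was *Insig2*, a protein that holds SREBP in the endoplasmic reticulum, at 0.35 ± 0.09, with its second probe at 0.25. Among 13 other lipogenic regulators, 12 were measured, none passed 2-fold on its brightest probe and the median was 0.00. The values ran from −0.65 for *Mlx*, the partner of the carbohydrate-responsive factor ChREBP, to 0.37 for *Rxra*, the partner of the liver X receptors. The second *Rxra* probe was at −0.13. *Lpin1*, named after its values were seen, was at −0.35 on its brightest probe and at −2.25 on a dimmer one.

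Among 7 genes that supply acetyl-CoA, citrate and NADPH, none passed 2-fold and the median was −0.01. The lowest was *Slc25a1*, the mitochondrial citrate carrier, at −0.32 ± 0.23. The highest was the malic enzyme *Me1*, at 0.61 ± 0.19 on its brightest probe, while its other probes were at 0.12 and −0.05. *Acly* encodes ATP citrate lyase, which the study examined by protein phosphorylation, knockdown and an inhibitor in primary macrophages, not in this line. The gene *Acly* is outside the rule for named genes and was chosen after its value was seen. It had signals of 13650 with vehicle and 18419 with IR-61 and a difference of −0.06 ± 0.09, smaller than its SD. Among the 11 other genes of the elongation cycle, 8 were measured, none passed 2-fold and the median was −0.03, between −0.52 for *Tecr*, the reductase of the last step, and 0.52 for the dehydratase *Hacd4*. The second *Hacd4* probe, similar in signal with vehicle (5007 against 4678), was at 0.27. Of the 9 genes of mitochondrial fatty acid synthesis 7 could be named, and all 7 lay between −0.28 for *Mecr* and 0.27 for *Lias*, with a median of 0.08. Over these lists together, 65 genes were measured on both arrays, 4 were lower by 2-fold or more, none was higher, and the median was 0.03. The background was 1.39% of genes lower and 1.99% higher by 2-fold or more, and without a replicate the counts have no error rate.

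Sterol synthesis, the program of the paralog SREBP-2, was set beside these genes as a description. Of its 23 genes, all measured, 1 was lower by 2-fold or more, against 1.39% of all measured genes. The median was −0.24, compared with −0.10 for the 10 genes of fatty acid synthesis and desaturation. The 1 gene was *Lss*, the lanosterol synthase, with signals of 247.4 with vehicle and 152.4 with IR-61 and a difference of −1.19 ± 0.23. The highest was the sterol reductase *Tm7sf2*, at 0.32, with its second probe at −0.24. No test of the difference between the lists could be made with 1 array per condition.

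**Figure D5:**
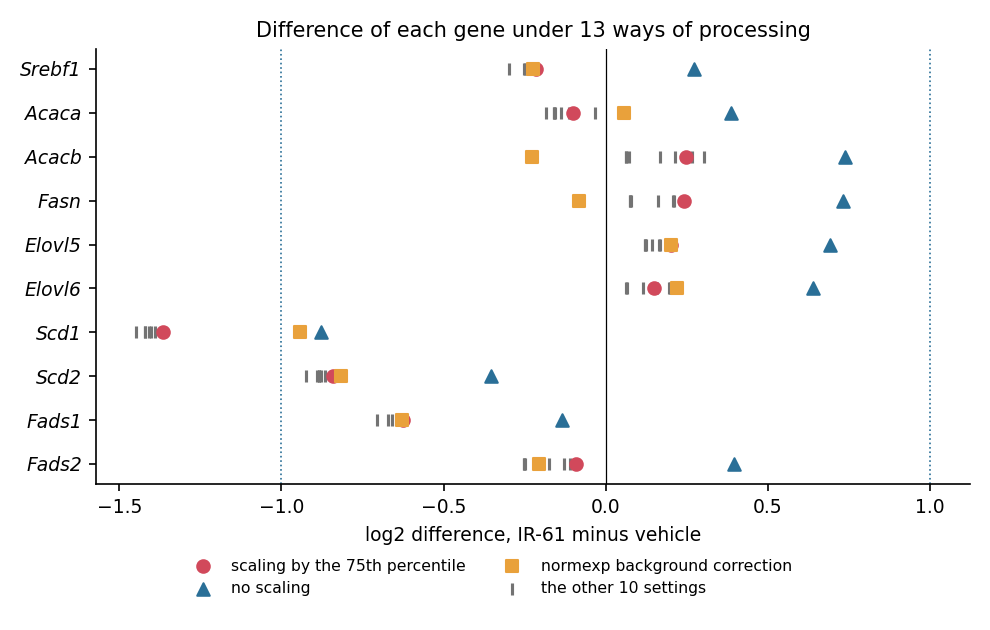
Log2 difference (IR-61 minus vehicle) of each of the 10 genes under 13 ways of processing, with circles for scaling by the 75th percentile, triangles for no scaling, squares for normexp background correction and grey ticks for the other 10. Dotted lines mark 2-fold. *Scd1* stays the lowest gene in each, between −1.45 and −0.88, while *Acaca*, *Acacb*, *Fasn*, *Fads2* and *Srebf1* have values on both sides of 0.

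The lower *Scd1* value depended on the processing for its size. It was −0.88 without scaling and −0.94 with normexp background correction, just short of 2-fold in both, and between −1.45 and −1.37 under the other 10 alternatives. Unscaled, the differences of all measured genes had a median of 0.59. Scaling by a single value of each array shifts every gene by the same amount, so values relative to the median of all genes could not change with it. They were −1.47 for *Scd1*, −0.94 for *Scd2* and −0.72 for *Fads1*. With normexp, which adds an offset to every signal before the log, the values relative to the median of all genes were −0.91 for *Scd1*, −0.79 for *Scd2* and −0.60 for *Fads1*.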

How the data were processed

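The arrays were 1-color Agilent mouse arrays of 1 RNA sample per condition. The authors deposited the intensity of each spot, background-subtracted and detrended within the array (Feature Extraction 11.0.1.1 per the file headers, 11.0.0.1 per the submitters' processing notes, another version in the methods), with 0/1 flags of the same software, and a table of log2 values per probe whose making is not given in the sources used here. Groups follow the labels, and the dose follows the text of the study. Control spots and outlier spots (124 and 139) were left out, repeated spots were averaged as log2 signals, and each array was scaled to its 75th percentile. Of 39419 probes 27224 were named by RefSeq accession through a GRCm38.p6 gene table, used for names because the array design gives another assembly. A gene took its brightest probe. A probe not well above background on 1 array gave a bound. The share of probes well above background was 77.6% (vehicle) and 81.2% (IR-61), and the number of arrays limits the precision. The SD of a difference was taken from the spread between spots of probes printed 10 times. No test was run. The members and lists were chosen with earlier results of these data known. Genes named are the 10 members, and of each list the highest, the lowest and every gene past 2-fold. The steps were tested on simulated arrays. Alternatives were other scalings, the deposited log2 values, the mean over probes, outlier spots kept, normexp (offset 50), other filters on dim probes, other fold limits and a trend over rows and columns removed. Normexp was run on the median signal, and 4 IR-61 spots with a local background above their signal took the median background, an amendment chosen after seeing the data. Python 3.11.15, numpy 2.4.6, pandas 2.3.3, statsmodels 0.14.6, matplotlib 3.10.9, R 4.3.3 and limma 3.58.1 were used.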

Additional observations from a re-analysis of the deposited data

How the results depend on the processing

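No paired analysis was possible because there was only 1 sample of each kind. Values within the spread between repeated spots of those in the report are left out here. Without scaling the differences were −0.88 for *Scd1*, −0.35 for *Scd2*, −0.14 for *Fads1*, 0.27 for *Srebf1*, 0.39 for *Acaca*, 0.40 for *Fads2*, 0.64 for *Elovl6*, 0.69 for *Elovl5*, 0.73 for *Fasn* and 0.74 for *Acacb*, and the medians were 0.39 for the 10 genes, 0.52 for the other lipogenic lists and 0.25 for sterol synthesis. These shifts equal the scaling that was left out. With normexp, amended after seeing the data, *Scd1* was at −0.94, *Acaca* at 0.055 and *Acacb* at −0.23. The number of the 10 genes lower by 2-fold or more was 0 without scaling and with normexp, 3 at the 1.5-fold limit and 0 at the 3-fold limit. For the other lipogenic lists it was 8 at the 1.5-fold limit, 0 at the 3-fold limit and 0 without scaling, in place of 4. For sterol synthesis it was 4 at the 1.5-fold limit, 2 with the mean over detected probes, 0 at the 3-fold limit and 0 without scaling, in place of 1. Of all measured genes, 5.69% were lower by 1.5-fold or more and 0.379% by 3-fold or more. The share of measured genes below *Scd1* was 1.12% without a filter on dim probes and 1.08% with normexp. With a log2 signal of at least 6 required, *Acacb*, *Fasn* and *Fads2* gave no value. Over all genes, those past 2-fold were 235 lower and 336 higher, 295 and 249 with scaling by the median, 279 and 257 with quantile normalization, 279 and 255 with loess, 281 and 266 with the deposited log2 values, 184 and 182 with the log2 signal of at least 6, 72 and 2156 without scaling, 149 and 124 with normexp and 440 and 921 without a filter on dim probes.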

Other observations

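Some genes of the pathway had probes that moved apart on the same 2 arrays, chosen for mention after their values were seen. *Lpin1*, a phosphatidate phosphatase and coactivator of lipid genes, had a brightest probe with signals of 474.9 with vehicle and 523.5 with IR-61 and a difference of −0.35, while its dimmer probe, with signals of 73.8 and 21.7, was at −2.25. *Hacd2*, a dehydratase of the elongation cycle, had probes at −0.48, 0.78 and 0.16. *Mbtps1*, the site-1 protease that cuts SREBP, had probes at 0.30 and −0.50. Which transcripts these probes bind was not tested.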
